A study of Mus musculus with 8 samples.

Results

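The genes of the Wnt pathway described here are 59 of the 24346 genes listed for each library. They were chosen by symbol only, as the Wnt ligands, the Frizzled and Ror receptors, the co-receptors Lrp5 and Lrp6, the secreted inhibitors of the Sfrp and Dkk families with Wif1, the R-spondins with their Lgr receptors, the ubiquitin ligases Rnf43 and Znrf3, the destruction complex genes Apc, Axin1 and Axin2, beta-catenin (Ctnnb1) and the 4 TCF/LEF factors. All 59 had a value above 0 in at least 1 library and were tested. The study asked how adipose-derived stem cells (ADSCs) differ between conventional 2D culture and 3D organotypic culture in Matrigel, a basement membrane gel. RNA of 8 cultures was sequenced, with 4 libraries in 2D (mice 2, 3, 4 and 5) and 4 in 3D (mice 1, 4, 5 and 7). The cells of both groups were primary cultures from the collagenase-digested gonadal fat of 12-week-old male BALB/c mice of WT genotype, without a transgene. The 3D cultures were grown in Matrigel, for which the study describes several media that differed in Wnt3a- and R-Spondin1-conditioned medium, and the labels do not state which medium the sequenced cultures received. The labels describe the 2D cultures only as 2D cultured, and the parts that gel, medium and form of culture had in a difference cannot be told apart. The 3D library of mouse 1 is 3D by its title and group label, but its short library name does not end in 3D as those of the other 3D libraries do.

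Wnt proteins are secreted lipid-modified ligands that bind Frizzled receptors together with Lrp5 or Lrp6. In the canonical branch this stops the destruction complex from degrading beta-catenin, which then enters the nucleus and acts with TCF/LEF factors on target genes. Other branches run through Frizzled, Ror1, Ror2 or Ryk to cell polarity and movement without beta-catenin. R-spondins bound to Lgr receptors remove Rnf43 and Znrf3 from the cell surface, and these ligases otherwise clear Frizzled receptors. In adipose tissue, canonical Wnt signalling is known to hold precursor cells back from becoming adipocytes, and in epithelial organoids Wnt3a and R-spondin 1 are common additions to the medium.

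The labelled cell type was checked against marker genes, because the level of a gene in a bulk library reflects both the cells present and the RNA per cell, and fewer cells of a type and less RNA per cell cannot be told apart. The summed level of 10 stromal markers was 1634 to 3478 normalized FPKM in 2D and 4.72 to 8.16 in 3D, with 9 of 10 lower in 3D. The defining stromal genes Pdgfrb, Dcn and Lum were at 0 in every 3D library. The summed level of 12 epithelial markers was 31.8 to 694 in 2D and 2723 to 3183 in 3D, with 11 of 12 higher in 3D, and Esrp1 and Elf3 were at 0 in every 2D library. Lum was at most 0.988 in 2D as well, and Twist1 was the marker with the highest level in 3D (4.59 to 7.99). The stromal markers of the mesenchymal label were thus far lower in the 3D libraries, and most were near 0. Within 2D, 8 mesothelial markers summed to 861 in mouse 3 and 2175 in mouse 4, against 2.24 in mouse 2 and 0.815 in mouse 5, and to 2.57 to 34.0 in 3D, with 0 of 8 called. Of 12 genes of the epididymis and its duct, Pax2 and Pax8 were higher in 3D. All 12 together summed to 39.0 to 51.1 in 3D and to 0.334 to 0.943 in 2D, and 9 averaged below 1 in 3D. Lcn8 and Cst8 were at 0 throughout 2D and above 0 in at least 1 3D library. Lcn5, Lcn9, Lcn10, Defb42, Spag11a and Adam7 were at 0 in all 8 libraries. Of 5 macrophage markers, Cd14 and Cd68 were higher in 3D, Ptprc was at most 0.0779 in any library and Adgre1 was at 0 in 3D. All 5 together summed to 124 to 170 in 3D and to 4.85 to 11.3 in 2D. The 5 endothelial markers summed to at most 6.79, with 0 of 5 called. The stromal and epithelial sums thus differed between the cultures, and the mesothelial sum differed widely among the 2D libraries. The part of these markers in the Wnt results was not tested.

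Of the 59 Wnt genes, 13 rose and 13 fell in 3D compared with 2D (adjusted p below 0.05, limma with Benjamini-Hochberg adjustment over 18862 genes). This is 22.03% in each direction, beside 21.2% of all tested genes that were higher and 20.3% that were lower. In total 44.1% of the Wnt genes were called, beside 41.5% of all genes, so the share called was close to the background, with both directions equally frequent. Their median log2 fold change was -0.02, and that of all tested genes was 0.00122. Fold changes are 3D minus 2D on the log2(FPKM + 1) scale after quantile normalization, which understates the change of low genes. On the normalized values, the libraries of the cultures did not overlap for 26 of the 59 genes, 13 in each direction, beside 42.5% of all genes. Of the 26 called genes, 22 changed by more than 1 on the log2 scale, and 22 kept the call whichever library was left out. All 26 moved in the same direction within mouse 4 and within mouse 5. When mouse was added as a block, with 1 residual degree of freedom remaining, the fit called 0 of the 59 genes and 0 of all 18862 genes (adjusted p of the 26 genes 0.111 to 0.289), while 21 of the 59 had an unadjusted p below 0.05 in it, beside 27.7% of all genes. The signs of all 26 genes were kept in that fit. With the mouse as a random effect, 13 were higher and 13 lower. With only mice 4 and 5, 13 of the 59 genes were called, beside 17.8% of all genes.

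**Figure D1:**
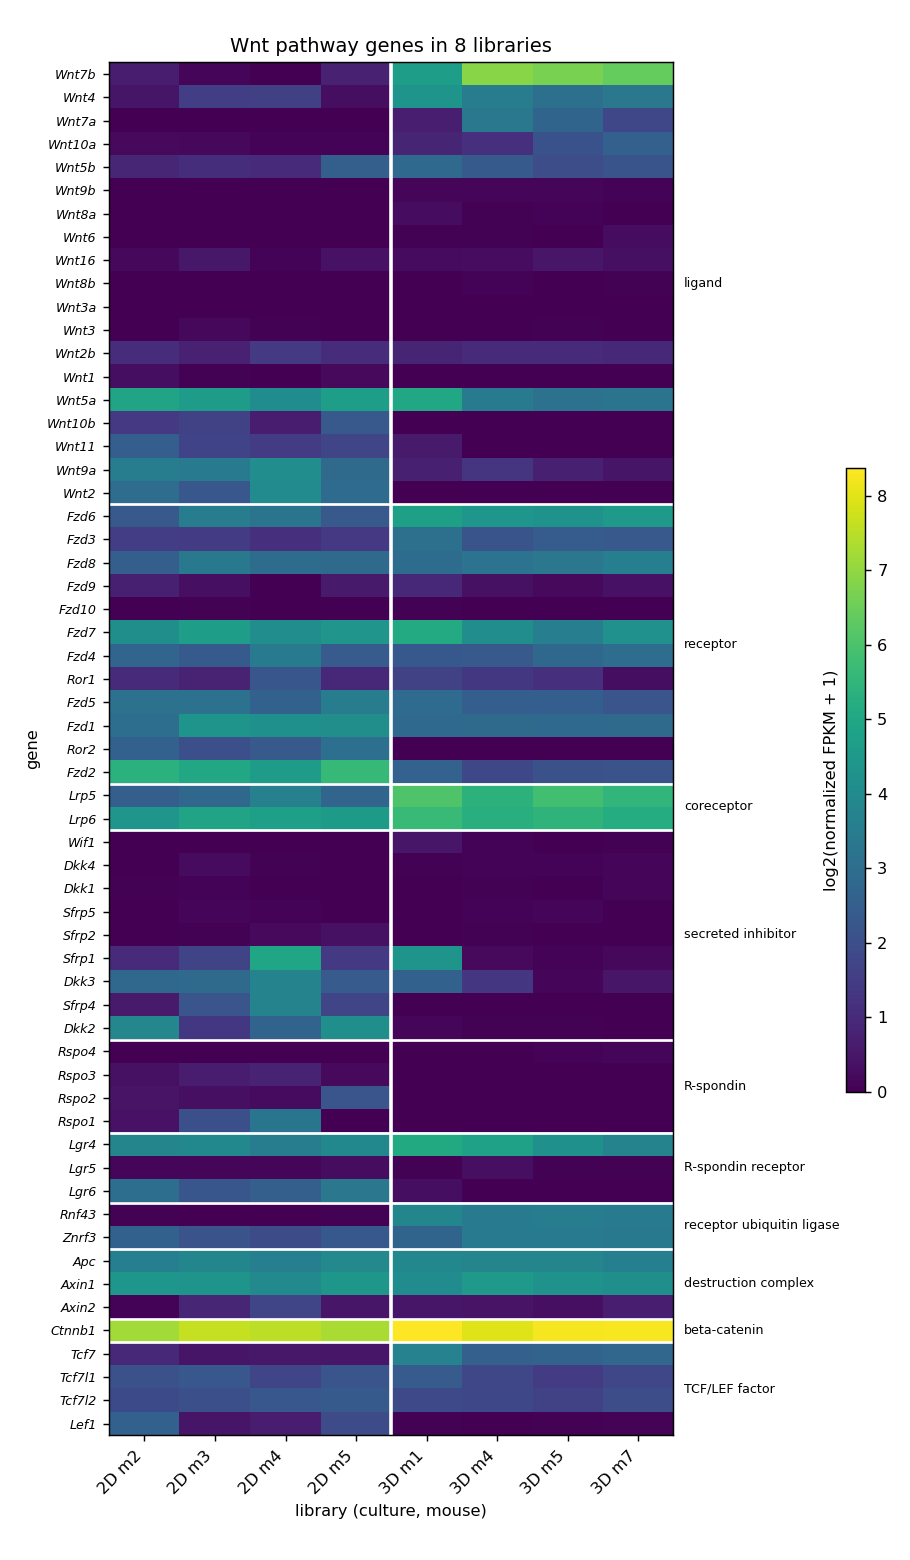
Levels of the 59 Wnt pathway genes in the 8 libraries, as log2(normalized FPKM + 1) in colour, with genes in rows grouped by role and libraries in columns (2D left of the white line, 3D right of it). Ctnnb1 has the highest level of all rows in both cultures, and Wnt7b and Rnf43 change from near 0 in 2D to bright in 3D, while Ror2 and Wnt2 do the opposite.

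Promoter sequences, credited to RefSeq on build GRCm38.p6, were found for 39 of the 59 genes, in 49 windows of the 250 bases before an annotated transcription start. They were searched on both strands for the TCF/LEF motif (CTTTGAA or CTTTGAT) and for the E-box CAGGTG. The TCF/LEF motif was in 3 of the 49 windows, beside 7.48% of all 32851 promoter windows, and the E-box was in 10 of 49, beside 17.2%. The 9 windows of genes higher in 3D came from 6 of the 13 such genes, without Wnt7b. Of these windows, 0 held the TCF/LEF motif and 2 the E-box. The 13 windows of genes lower in 3D came from 9 of the 13 such genes, and 1 held each motif. The median number of CpG dinucleotides per window was 34 in the higher genes, 14 in the lower genes and 22 in the genes not called. It was 6 over all promoters. These medians are over windows, so a gene with several windows, such as Lef1, counts more than once. Differences between the groups were not tested. A match is a run of letters and not a measured binding site. The windows below contain no annotated exon base. Among the called genes with a window, Wnt11 is shown as the only 1 with a TCF/LEF match. Wnt9b and Wnt10b are shown for their E-boxes in genes of opposite direction. Ror2 and Ctnnb1 are shown as windows without a match, also in genes of opposite direction. Motif letters are in capitals, 5′ to 3′ on the gene's strand.
Wnt11 (lower in 3D, chr7:98834862-98835111, plus strand, TCF/LEF match on the minus strand from base -51): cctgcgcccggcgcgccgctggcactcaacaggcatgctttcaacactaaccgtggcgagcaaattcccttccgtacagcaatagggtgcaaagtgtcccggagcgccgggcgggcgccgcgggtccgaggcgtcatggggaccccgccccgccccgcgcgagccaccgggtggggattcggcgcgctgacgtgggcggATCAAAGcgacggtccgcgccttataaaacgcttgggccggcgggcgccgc
Wnt10b (lower in 3D, chr15:98778151-98778400, minus strand): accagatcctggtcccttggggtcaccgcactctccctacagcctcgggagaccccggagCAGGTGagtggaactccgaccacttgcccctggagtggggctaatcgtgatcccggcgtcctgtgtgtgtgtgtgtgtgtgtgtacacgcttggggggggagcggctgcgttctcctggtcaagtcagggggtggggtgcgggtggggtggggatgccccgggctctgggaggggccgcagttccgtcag
Ror2 (lower in 3D, chr13:53286125-53286374, minus strand): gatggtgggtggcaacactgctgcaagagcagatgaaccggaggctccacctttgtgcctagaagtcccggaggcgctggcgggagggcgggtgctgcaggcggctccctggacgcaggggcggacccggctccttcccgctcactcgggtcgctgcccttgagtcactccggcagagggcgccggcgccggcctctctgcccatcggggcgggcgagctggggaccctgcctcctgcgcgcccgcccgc
Wnt9b (higher in 3D, chr11:103749822-103750071, minus strand): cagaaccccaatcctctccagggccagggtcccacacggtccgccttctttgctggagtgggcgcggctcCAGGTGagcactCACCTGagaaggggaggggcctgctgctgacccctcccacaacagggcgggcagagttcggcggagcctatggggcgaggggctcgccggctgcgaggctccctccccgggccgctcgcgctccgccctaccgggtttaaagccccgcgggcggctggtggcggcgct
Ctnnb1 (higher in 3D, chr9:120933150-120933399, plus strand): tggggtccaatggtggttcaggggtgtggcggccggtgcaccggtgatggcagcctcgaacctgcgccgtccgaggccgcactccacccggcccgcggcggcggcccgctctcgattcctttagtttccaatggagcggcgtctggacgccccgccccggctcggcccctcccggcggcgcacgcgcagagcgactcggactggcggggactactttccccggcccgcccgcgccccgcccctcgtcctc

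Among the 19 Wnt ligands, 5 were higher in 3D (Wnt7b, Wnt4, Wnt7a, Wnt10a and Wnt9b), 4 were lower (Wnt2, Wnt9a, Wnt11 and Wnt10b) and 10 did not pass the test. These are 26.3% and 21.1% of the ligands, beside 21.2% and 20.3% of all genes. The ligand with the largest rise of all 59 genes was Wnt7b (chr15:85535437-85582473, minus strand), a ligand of epithelia such as lung and kidney collecting duct. Its normalized FPKM in mice 2, 3, 4 and 5 of the 2D group were 0.551, 0.0770, 0.0192 and 0.687, and in mice 1, 4, 5 and 7 of the 3D group 25.2, 118, 102 and 83.9. Every 3D library was far above every 2D library, and mouse 1 was the lowest of the 3D group. In log2 units this was a rise of 5.79 with a standard error of 0.48 (limma's adjusted p = 6.8e-05). In the same library order, Wnt4, a ligand of kidney and genital tract development, was at 0.402, 1.91, 2.01 and 0.246 in 2D and at 19.0, 10.5, 7.52 and 8.88 in 3D. Here mouse 1 was the highest of the 3D group, and the groups did not overlap (log2 fold change 2.58, standard error 0.40, limma's adjusted p = 0.00159). Wnt7a, a ligand of the female genital tract and of limb patterning, reached at most 0.00461 in 2D and 0.642 to 9.21 in 3D (log2 fold change 2.13, limma's adjusted p = 0.0118). The 2D libraries were at or below the value that 3 fragments give in each library, which puts the rise at 80.9-fold or more, and at 54.1-fold or more without 3D mouse 4. Wnt10a, a ligand of skin appendages and teeth, rose, with 0.0480 to 0.154 in 2D and 0.845 to 4.92 in 3D (log2 fold change 1.54, limma's adjusted p = 0.0104). Wnt9b, a ligand of nephric duct epithelium, was at 0 FPKM throughout 2D and at 0.0598 to 0.118 in 3D (limma's adjusted p = 0.00366), which is at least 2.66-fold higher at a very low level.

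The ligands that fell were expressed in every 2D library. In 3D, Wnt2 and Wnt10b were at 0 in all libraries, Wnt11 was above 0 in 1 library and Wnt9a stayed above its floor in all of them. Wnt2, a ligand of lung and vessel mesenchyme, was at 7.03, 3.81, 15.5 and 6.65 in the 2D libraries of mice 2, 3, 4 and 5 and at 0 in all 4 3D libraries. On the log2 scale it fell by 3.06 with a standard error of 0.34 (limma's adjusted p = 0.000309), and against the floor of 3 fragments it was at least 82.2-fold lower in 3D, or 55.6-fold without 2D mouse 4. Wnt9a, a ligand of joint formation, was at 10.7, 10.3, 16.3 and 6.42 in 2D and at 0.661, 1.40, 0.667 and 0.395 in 3D. The groups did not overlap (log2 fold change -2.71, standard error 0.29, limma's adjusted p = 0.000248), and the 2D mean was 14.0-fold the 3D mean. Wnt11, a ligand of convergent extension and kidney branching, ranged from 1.72 to 4.67 in 2D and was at 0.514 in 3D mouse 1 and at 0 in the other 3D libraries (log2 fold change -1.70, limma's adjusted p = 0.00131). Wnt10b, a ligand known to hold back adipogenesis, ranged from 0.580 to 4.07 in 2D and was at 0 in 3D (log2 fold change -1.50, limma's adjusted p = 0.00632). Against its floor it was at least 9.15-fold lower, or 6.20-fold without 2D mouse 5.

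Wnt5a, the main noncanonical ligand of mesenchyme, was high in both cultures. It was at 28.5, 23.2, 15.6 and 24.7 in 2D and at 30.7, 9.98, 7.77 and 8.40 in 3D. Mouse 1 was the highest of all 8 libraries, the other 3D libraries were below every 2D library, and the difference did not pass the test (log2 fold change -0.85, limma's adjusted p = 0.144). Without 3D mouse 1 it did, at -1.30 with limma's adjusted p = 0.00294 (0.00294 to 0.293 across alternatives). Wnt5b, its close relative, was at 0.861 to 4.80 in 2D and at 2.94 to 6.35 in 3D, where only 2D mouse 5 overlapped the 3D range. Its log2 fold change was 0.96 with limma's adjusted p = 0.0916, and the values as deposited gave 1.19 with 0.0423 (0.00575 to 0.7404 across alternatives). Without 2D mouse 5 it passed as well, at 1.34 with limma's adjusted p = 0.00575. Wnt2b was at 0.699 to 1.66 in 2D and 0.814 to 1.06 in 3D (log2 fold change -0.12, limma's adjusted p = 0.531), and this sign turned as deposited (0.16). The remaining ligands were low in all libraries. Their highest values were 0.470 for Wnt16, 0.254 for Wnt1, 0.225 for Wnt8a, 0.205 for Wnt6, 0.128 for Wnt3, 0.0525 for Wnt8b and 0.0102 for Wnt3a. Wnt3a, whose protein is the one named for the 3D media, was thus at or under the floor of 3 fragments in every library, which concerns the transcript of the cells and not the protein in the medium.

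The make-up of the ligand transcripts differed between the cultures. The FPKM of the 19 ligands, as deposited, summed to 55.4, 45.8, 54.5 and 49.9 in 2D and to 83.7, 135, 112 and 99.96 in 3D. In 2D, Wnt5a made up 28.8% to 56.7% of this sum, Wnt9a 11.7% to 29.9% and Wnt2 7.75% to 28.5%. Wnt5a held the most in mice 2, 3 and 5, and Wnt9a (29.9%) was slightly above Wnt5a (28.8%) in mouse 4. In 3D, Wnt7b made up 70.7%, 71.7% and 68.5% in mice 4, 5 and 7, and 28.4% in mouse 1. In that library Wnt5a held 34.1% and Wnt4 22.1%, so 3D mouse 1 stood apart from the other 3D libraries in its ligands. Wnt7b made up at most 0.878% in 2D. FPKM are per transcript length, so these shares compare levels between genes. Some ligands lie next to each other in the genome. Wnt6 and Wnt10a are 6.193 kb apart on chromosome 1, Wnt10b and Wnt1 11.706 kb apart on chromosome 15, and on chromosome 11 Wnt3a and Wnt9a are 16.175 kb and Wnt9b and Wnt3 24.328 kb apart. In each of these pairs 1 gene was called (Wnt10a, Wnt10b, Wnt9a and Wnt9b) and its neighbour was not. Whether the neighbours differed in their change was not tested.

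**Figure D2:**
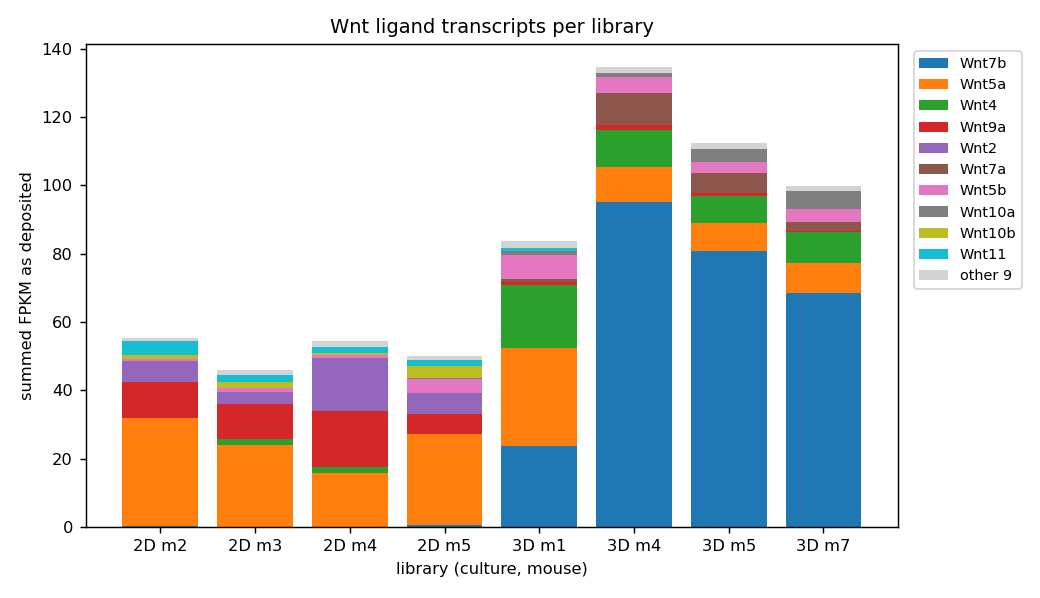
Stacked bars of the FPKM as deposited of the Wnt ligands in each library (vertical axis, summed FPKM from 0), coloured by gene. The 9 ligands without a colour of their own, Wnt2b among them, are together in grey. Wnt5a, Wnt9a and Wnt2 make up most of the 2D bars, and Wnt7b makes up 68.5% to 71.7% of the 3D bars except that of mouse 1, where it makes up 28.4%.

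Of the 12 receptors, Fzd6 and Fzd3 were higher in 3D, Fzd2, Fzd1 and Ror2 were lower, and 7 did not pass the test. The share called was 41.7%, beside 41.5% of all genes. Fzd2 (chr11:102604396-102608058, plus strand), a receptor that also serves Wnt5a, was at 39.4, 30.5, 23.4 and 47.8 normalized FPKM in 2D and at 5.14, 2.51, 3.20 and 3.44 in 3D. The groups were far apart, with a 2D mean 9.87-fold the 3D mean (log2 fold change -2.97, standard error 0.25, limma's adjusted p = 8.12e-05). Fzd6, a receptor of hair and tissue polarity, moved the other way, from 4.09, 10.5, 8.25 and 4.10 in 2D to 26.1, 20.1, 18.2 and 22.4 in 3D. Mice 3 and 4 were the higher 2D libraries but stayed below all 3D libraries (log2 fold change 1.63, standard error 0.29, limma's adjusted p = 0.00304). Fzd3, also a polarity receptor and known in axon guidance, rose, with 1.17 to 1.84 in 2D and 3.51 to 7.43 in 3D (log2 fold change 1.15, limma's adjusted p = 0.00453). Fzd1 was at 7.17, 19.4, 17.3 and 16.7 in 2D and at 6.34, 6.44, 6.28 and 6.40 in 3D. After normalization, the 2D library of mouse 2 lay just above the 3D libraries and the others far above them (log2 fold change -1.05, standard error 0.28, limma's adjusted p = 0.0185). As deposited, 2D mouse 2 (6.48 FPKM) lay below every 3D library (6.75 to 7.01). The change as deposited was -0.95 with limma's adjusted p = 0.0400. Without 2D mouse 5 the call of Fzd1 was lost.

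Ror2, a tyrosine kinase co-receptor of Wnt5a, was at 3.12 to 7.39 in 2D and at 0 in every 3D library (log2 fold change -2.51, standard error 0.21, limma's adjusted p = 7.7e-05). Against the floor it was at least 80.2-fold lower in 3D, or 65.8-fold without 2D mouse 5. Its relative Ror1 was present in both cultures, at 0.773 to 3.70 in 2D and 0.227 to 2.16 in 3D, and did not pass the test (log2 fold change -0.16, limma's adjusted p = 0.767). Its sign turned as deposited (0.13), and its highest library was 2D mouse 4.

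The other Frizzled receptors overlapped between the cultures. Fzd7 had the highest mean of these, at 16.9, 24.3, 16.1 and 19.8 in 2D and 34.1, 16.3, 11.0 and 17.9 in 3D (log2 fold change -0.06, limma's adjusted p = 0.891). Its 3D values spread more than those of 2D because mouse 1 was high and mouse 5 low. Fzd8 was at 4.86, 9.53, 6.73 and 6.42 in 2D and 6.78, 8.18, 9.07 and 11.2 in 3D (limma's adjusted p = 0.260). Fzd5 was at 7.97, 7.75, 5.13 and 10.4 in 2D and 6.70, 4.70, 4.63 and 3.59 in 3D (log2 fold change -0.57, limma's adjusted p = 0.0884). Only the 2D library of mouse 4 and the 3D library of mouse 1 crossed into the other group. Without the first the change was -0.73 with limma's adjusted p = 0.0312, and without the second -0.72 with 0.0469 (0.0312 to 0.447 across alternatives). Fzd4, a receptor of the vascular ligand norrin, was at 5.68, 4.21, 9.81 and 4.32 in 2D and 3.98, 4.01, 6.10 and 6.97 in 3D (log2 fold change -0.13, and 0.10 as deposited). Fzd9 reached at most 0.896 and Fzd10 at most 0.0435 in any library. Over all Frizzled genes the summed FPKM as deposited were 87.5 to 120 in 2D and 65.9 to 97.1 in 3D, which overlap. Fzd2 made up 27.7% to 49.6% of that sum in 2D and 4.27% to 6.03% in 3D, and Fzd6 2.96% to 9.45% in 2D and 25.2% to 28.6% in 3D.

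Both co-receptors were higher in 3D. Lrp5 (chr19:3584828-3686564, minus strand), a co-receptor known for its role in bone mass, was at 4.82, 6.06, 11.4 and 5.69 in 2D and at 65.5, 40.5, 56.5 and 44.4 in 3D. The 3D mean was 7.39-fold the 2D mean, and the lowest 3D library was well above the highest 2D library, that of mouse 4 (log2 fold change 2.76, standard error 0.26, limma's adjusted p = 0.000135). Lrp6, the more widely used co-receptor, was at 19.4, 28.7, 25.7 and 22.8 in 2D and at 49.0, 36.9, 42.9 and 35.8 in 3D (log2 fold change 0.75, standard error 0.15, limma's adjusted p = 0.00477). The groups did not overlap, and as deposited the change was smaller, at 0.50 with limma's adjusted p = 0.0192 (0.00347 to 0.174 across alternatives). In 2D, Lrp6 was above Lrp5 in all 4 libraries. In 3D, Lrp5 was above Lrp6 in all 4.

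**Figure D3:**
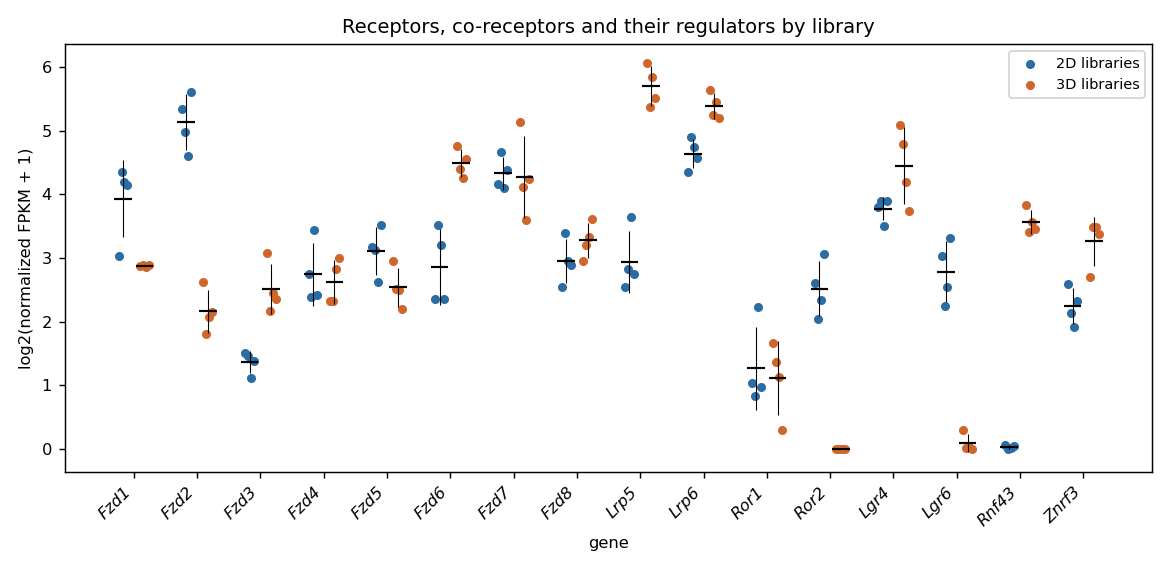
Level of 16 receptor, co-receptor, Lgr and ubiquitin ligase genes in each library as log2(normalized FPKM + 1), with 2D libraries in blue and 3D libraries in orange, a horizontal bar for the mean and a vertical line for 1 SD (n = 4). Fzd2, Ror2 and Lgr6 lie higher in 2D, Fzd6, Lrp5 and Rnf43 lie higher in 3D, and Fzd4, Fzd7 and Ror1 overlap.

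Among the 9 secreted inhibitors, 0 were higher in 3D, Dkk2, Dkk3 and Sfrp4 were lower, and 6 did not pass the test. The share that was lower was 33.3%, beside 20.3% of all genes. Dkk2, which binds Lrp5 and Lrp6, was at 13.5, 1.58, 5.34 and 16.8 in 2D and at 0.0723, 0.0319, 0.0392 and 0 in 3D. The 2D libraries of mice 2 and 5 were high and that of mouse 3 was low, and none overlapped with 3D (log2 fold change -2.96, standard error 0.57, limma's adjusted p = 0.00458). Dkk3, a divergent member of the family, was at 6.002, 6.47, 12.5 and 4.31 in 2D and at 5.04, 1.48, 0.119 and 0.430 in 3D. Here 3D mouse 1 lay within the 2D range (log2 fold change -1.82, standard error 0.55, limma's adjusted p = 0.0308). The call was lost as deposited with an adjusted p of 0.0543 by limma (0.00392 to 0.114 across alternatives), and without any 1 of 6 libraries, those other than 2D mouse 5 and 3D mouse 1. Sfrp4, a soluble Frizzled-like protein that binds Wnt ligands, was at 0.525 to 12.5 in 2D and at 0 in 3D (log2 fold change -2.08, limma's adjusted p = 0.0229). Against the floor it was at least 19.6-fold lower, or 8.10-fold without 2D mouse 4, and the call was lost without 3D mouse 4, 5 or 7.

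Sfrp1, another soluble Frizzled-like protein, differed more within than between the cultures. It was at 1.02, 2.31, 30.3 and 1.67 in 2D and at 19.3, 0.155, 0.0483 and 0.122 in 3D. One library of each culture, 2D mouse 4 and 3D mouse 1, was far above the rest, and the difference did not pass the test (log2 fold change -1.08, standard error 1.23, limma's adjusted p = 0.508). Expression of the remaining inhibitors was low, with highest values of 0.422 for Wif1 (3D mouse 1), 0.305 for Sfrp2, 0.172 for Dkk4, 0.111 for Sfrp5 and 0.0948 for Dkk1. The summed FPKM of the 9 inhibitors, as deposited, was 19.9, 13.4, 62.3 and 24.6 in 2D and 25.4, 2.18, 0.347 and 0.773 in 3D. Mouse 1 was the only 3D library within the 2D range, and Sfrp1 made up 74.0% of its sum.

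Of the 4 R-spondins, Rspo3 was lower in 3D (25.0% of the 4, beside 20.3% of all genes). It was at 0.165 to 0.777 in 2D and at 0 in 3D (log2 fold change -0.52, limma's adjusted p = 0.0115). Against its floor it was at least 5.77-fold lower, or 3.91-fold without 2D mouse 4. Rspo1, whose protein is the other one named for the 3D media, was at 0.339, 3.10, 8.58 and 0 in the 2D libraries of mice 2, 3, 4 and 5 and at 0 in 3D. It did not pass the test (limma's adjusted p = 0.126), and 1 of the 2D libraries was at 0 as well. Without that library, 2D mouse 5, the change was -1.92 with limma's adjusted p = 0.0441 (0.0441 to 0.461 across alternatives). Rspo2 was at 0.188 to 3.67 in 2D and at most 0.0224 in 3D. Its groups did not overlap, but the spread within 2D was large, with mouse 5 highest, and the test was not passed (log2 fold change -0.81, limma's adjusted p = 0.164). Without 2D mouse 5 the change was -0.35 with limma's adjusted p = 0.00187, and with a pseudocount of 0.1 the adjusted p was 0.0210 (0.00187 to 0.386 across alternatives). Rspo4 reached at most 0.0896.

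The R-spondin receptors did not move together. Lgr6 (chr1:134983301-135105276, minus strand), known as a stem cell marker of skin, was at 7.21, 3.75, 4.82 and 8.91 in 2D and at 0.232, 0.0138, 0.0208 and 0 in 3D. The groups were far apart (log2 fold change -2.70, standard error 0.24, limma's adjusted p = 0.000105). Lgr4, the most widely expressed of the 3, was at 12.9, 13.9, 10.4 and 13.9 in 2D and at 33.1, 26.5, 17.2 and 12.3 in 3D, where mouse 7 fell within the 2D range and the test was not passed (log2 fold change 0.67, limma's adjusted p = 0.0981). Without 3D mouse 7 it was, at 0.93 with limma's adjusted p = 0.0201 (0.0201 to 0.325 across alternatives). Lgr5, the stem cell marker of intestinal crypts, reached at most 0.259 in any library.

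Both receptor ubiquitin ligases were higher in 3D. Rnf43 (chr11:87662722-87735539, plus strand), a negative feedback gene of the canonical branch, was at 0.0457, 0, 0.0138 and 0.0292 in 2D and at 13.3, 9.64, 10.8 and 9.93 in 3D. The 2D libraries were all at or below the floor and the 3D libraries lay close together, so that Rnf43 had the smallest adjusted p of the 59 genes (log2 fold change 3.53, standard error 0.14, limma's adjusted p = 1.76e-06). The rise was at least 156-fold, and 146-fold without 3D mouse 1. Its relative Znrf3 was at 5.04, 3.38, 2.78 and 3.98 in 2D and at 5.46, 10.2, 10.2 and 9.36 in 3D, where 3D mouse 1 lay just above the highest 2D library (log2 fold change 1.02, standard error 0.23, limma's adjusted p = 0.00975). Znrf3 was thus expressed in both cultures and Rnf43 in 3D.

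The destruction complex genes did not pass the test. Apc, its scaffold, was at 11.1, 13.3, 11.2 and 14.3 in 2D and 13.9, 13.1, 13.1 and 11.2 in 3D (log2 fold change 0.04, standard error 0.11, limma's adjusted p = 0.805). Axin1, the other scaffold, was at 19.9, 19.3, 14.5 and 20.4 in 2D and 15.98, 21.8, 18.1 and 17.1 in 3D (log2 fold change -0.02, standard error 0.14, limma's adjusted p = 0.914). The ranges of both genes overlapped and their signs turned with single libraries. Axin2, the feedback gene most used as a readout of canonical signalling, was low in both cultures, with 0.0664, 0.864, 2.36 and 0.435 in 2D and 0.407, 0.356, 0.277 and 0.610 in 3D (limma's adjusted p = 0.453). The spread of Axin2 within 2D covered the whole 3D range.

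Ctnnb1 was the most abundant of the 59 genes in every library. It was at 149, 198.8, 187 and 160 in 2D and at 331, 250, 306 and 313 in 3D, without overlap (log2 fold change 0.79, limma's adjusted p = 0.00211). As deposited, the change was 0.25 and limma's adjusted p was 0.0567 (0.00127 to 0.223 across alternatives). Quantile normalization raised the log2 fold change of genes with a mean over 100 FPKM by 0.53 and that of genes between 20 and 100 FPKM by 0.23 (medians), and lowered that of genes between 1 and 5 FPKM by 0.24. The fold changes of Ctnnb1 with and without normalization thus differed by about the median shift at its level. Of its exon bases, 14.6% overlap exons of Ulk4 on the opposite strand.

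The TCF/LEF factors changed in their make-up. Tcf7, a factor of T cells and of many stem cells, was at 0.918, 0.399, 0.470 and 0.413 in 2D and at 11.99, 4.89, 5.41 and 5.79 in 3D. All 3D libraries were above all 2D libraries, with mouse 1 highest (log2 fold change 2.31, standard error 0.27, limma's adjusted p = 0.000432). Lef1, the factor of hair follicles and mammary buds, was at 0.387 to 5.11 in 2D and at most 0.0614 in 3D (log2 fold change -1.37, limma's adjusted p = 0.0435). It was at least 20.1-fold lower against its floor, or 11.3-fold without 2D mouse 2, and its call was lost without any 1 of 6 libraries, those other than 2D mice 3 and 4. Tcf7l1, which mostly represses, was at 2.40 to 3.79 in 2D and 1.81 to 4.29 in 3D (log2 fold change -0.21, limma's adjusted p = 0.481, and 0.05 as deposited). Tcf7l2, the main factor of the gut, was at 2.65 to 4.18 in 2D and 2.09 to 2.99 in 3D (log2 fold change -0.32, limma's adjusted p = 0.1696). As shares of the summed FPKM of the 4 factors, Tcf7 held 2.80% to 6.98% in 2D and 48.5% to 59.6% in 3D, and Lef1 held 4.87% to 45.2% in 2D and at most 0.479% in 3D.

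**Figure D4:**
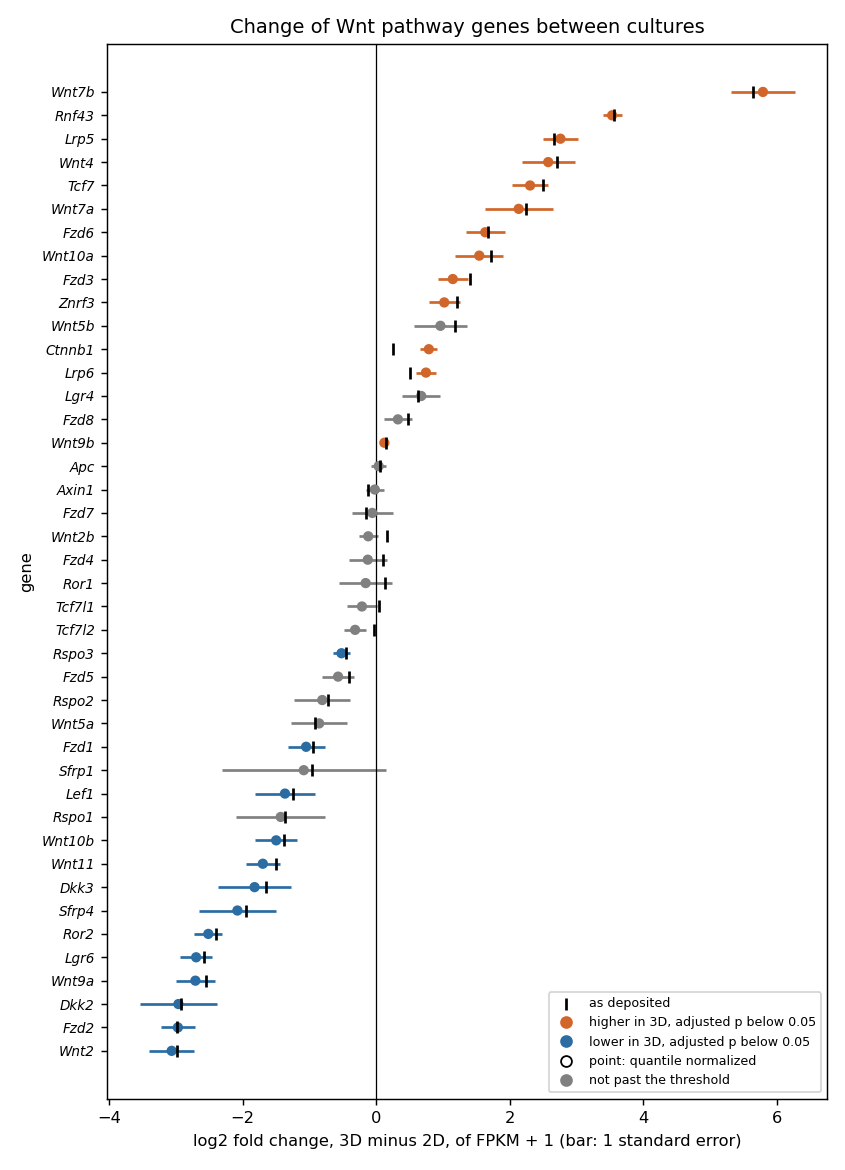
Log2 fold change (3D minus 2D, of FPKM + 1) of the Wnt genes with a mean of at least 1 normalized FPKM in a culture or with a call, each point with 1 standard error from limma and a black tick for the fold change of the values as deposited. Genes higher in 3D are orange, genes lower are blue and genes not past the threshold are grey, from Wnt7b at 5.79 to Wnt2 at -3.06, and the tick lies farthest from the point for Ctnnb1 (0.25 against 0.79).

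Other genes of the pathway were taken from lists by function. Of 3 genes of Wnt secretion and release, 1 was higher in 3D (33.3%, beside 21.2% of all genes). This was Notum, an extracellular enzyme that removes the lipid of Wnt proteins, with at most 0.0736 in 2D and 0.0952 to 0.480 in 3D (log2 fold change 0.38, limma's adjusted p = 0.0132). Wls, the carrier of Wnt proteins to the surface, was high in both cultures (107 to 170 in 2D, 90.0 to 123 in 3D) and did not pass the test (log2 fold change -0.28, limma's adjusted p = 0.210). As deposited it fell by 0.83, with limma's adjusted p = 0.000966 (0.000966 to 0.569 across alternatives). Porcn, which adds the lipid, was at 1.48 to 3.28 in 2D and 2.72 to 3.83 in 3D (limma's adjusted p = 0.413). With the values as deposited, both Wls and Porcn were called. Of 10 other modulators tested, 0 were higher and Apcdd1, Tpbg and Frzb were lower, with log2 fold changes of -1.27, -0.84 and -0.53 (30.0% lower, beside 20.3% of all genes). The median over these 10 was 0.00, and 1 of the 3 calls was lost as deposited. Of the 10, 5 were at or under the floor of 3 fragments in both cultures, and 3 averaged at least 1 normalized FPKM in a culture. The counts and the median thus rest largely on genes with little or no signal. Sostdc1 was listed at 0 in all libraries.

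Of 23 genes of the Dishevelled step and the destruction complex, 5 were higher and 6 lower in 3D (47.8% called, beside 41.5% of all genes). Their median log2 fold change was -0.05. As deposited, 2 of these calls were lost and 2 other genes gained a call. The Dact family, scaffolds that bind Dishevelled, split. Dact2 rose, with 0.169 to 3.18 in 2D and 13.7 to 35.7 in 3D (log2 fold change 3.10, limma's adjusted p = 0.00265). Dact3 fell, with 7.30 to 24.9 in 2D and 0.290 to 0.4 in 3D (log2 fold change -3.62, limma's adjusted p = 0.000173), and Dact1 fell, with 1.31 to 2.48 in 2D and at most 0.233 in 3D (log2 fold change -1.42, limma's adjusted p = 0.000215). Dvl1, 1 of the 3 Dishevelled genes, rose, with 19.9 to 22.5 in 2D and 49.3 to 72.0 in 3D (log2 fold change 1.49, limma's adjusted p = 5.96e-05). Of 15 nuclear cofactors, 6 were higher and 2 lower, with a median of 0.38. As shares, 40% of the list were higher and 13.3% lower, beside 21.2% and 20.3% of all genes. As deposited, 2 of these calls were lost and 2 other cofactors gained a call. The largest rises were those of Tle1, a Groucho corepressor (log2 fold change 0.92), and Ep300, a histone acetyltransferase (0.72). The genes that fell were Pygo1, a reader of methylated histone H3 (-1.27), and Ctnnbip1, an inhibitor of beta-catenin binding (-0.96).

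Of 15 genes of the noncanonical and planar polarity branches, 4 were higher and 4 lower (53.3% called, beside 41.5% of all genes). Their median was -0.11, and 1 of these calls was lost as deposited. Celsr2, an atypical cadherin of planar polarity, was at 0.0398 to 0.0964 in 2D and 16 to 19.6 in 3D (log2 fold change 4.19, limma's adjusted p = 5.67e-07). Its relative Celsr1 was at 0 to 1.95 in 2D and 7.43 to 9.68 in 3D (log2 fold change 2.69, limma's adjusted p = 0.000653), and Vangl1 (1.21) and Scrib (1.16) were the other genes that rose. Prickle2 fell, with 1.67 to 2.86 in 2D and at most 0.0621 in 3D (log2 fold change -1.59, limma's adjusted p = 6.32e-05) and so did Prickle1, with 5.57 to 8.73 in 2D and 0.991 to 2.81 in 3D (log2 fold change -1.46, limma's adjusted p = 0.00212). Ryk, a Wnt receptor of the kinase type, fell, with 55.2 to 64.4 in 2D and 24.7 to 30.4 in 3D (log2 fold change -1.07), and Prickle4 fell by 0.40. The called Celsr genes thus rose and the called Prickle genes fell.

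Of a list of 20 genes known as targets of canonical Wnt signalling in several tissues, 7 were higher in 3D and 4 lower among 19 tested, which is 57.9% beside 41.5% of all genes, and the gene T (brachyury) was at 0. The higher genes were Rnf43, Znrf3 and Tcf7 of the 59 genes above, with Tnfrsf19, Sp5, Ccnd1 and Notum. The lower genes were Lef1 of the 59 genes, with Wisp1, Apcdd1 and Nkd1. As deposited, 1 call in this list was lost and 1 was gained. The median log2 fold change over the 19 was 0.01. Among the 12 tested targets that are not in the set of 59, 4 were higher and 3 lower. These are 33.3% and 25.0%, beside 21.2% and 20.3% of all genes. Sp5, a transcription factor induced by Wnt signals, was at 0, 0, 0.0158 and 0 in 2D and at 2.94, 6.30, 11.2 and 1.98 in 3D. The rise was at least 64.8-fold, or 44.6-fold without 3D mouse 5 (log2 fold change 2.50, limma's adjusted p = 0.00215). Tnfrsf19, a receptor of the tumour necrosis factor family, was at 0.0303 to 0.0818 in 2D and at 39.6, 2.14, 1.37 and 3.60 in 3D, with mouse 1 far above the rest. It was at least 33.9-fold higher, or 8.24-fold without 3D mouse 1 (log2 fold change 2.53, limma's adjusted p = 0.0420). Ccnd1, the G1 cyclin D1, was at 150 to 224 in 2D and 246 to 447 in 3D (log2 fold change 1.06, limma's adjusted p = 0.00616). As deposited it was at 0.49 with limma's adjusted p = 0.1396 (0.00167 to 0.1396 across alternatives).

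In the other direction, Wisp1, a matricellular protein of stroma, was at 146, 201, 63.4 and 124 in 2D and at 0, 0.0571, 0.0167 and 0.0114 in 3D (log2 fold change -6.93, limma's adjusted p = 3.46e-06). Nkd1, a feedback inhibitor that binds Dishevelled, was at 0.479 to 1.07 in 2D and at most 0.00412 in 3D (log2 fold change -0.79, limma's adjusted p = 0.000463). Axin2, Lgr5, Myc and Cd44 were among the targets that did not pass the test. Myc was at 27.5 to 49.8 in 2D and 10.1 to 31.9 in 3D, and Cd44 at 82.9 to 137 in 2D and 62.9 to 115 in 3D. The feedback genes of the list therefore did not share a direction, with Rnf43, Znrf3 and Notum higher, Nkd1 and Apcdd1 lower and Axin2 not called.

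**Figure D5:**
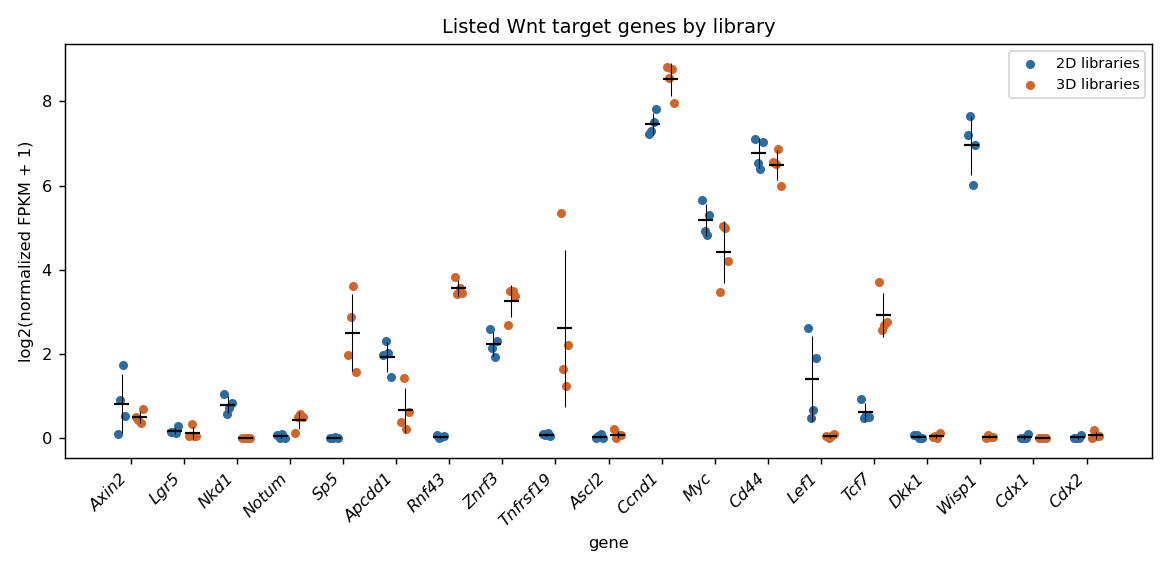
Level of the 19 tested target genes in each library as log2(normalized FPKM + 1), with 2D libraries in blue and 3D libraries in orange, a horizontal bar for the mean and a vertical line for 1 SD (n = 4). Sp5, Rnf43, Tnfrsf19, Tcf7 and Ccnd1 lie higher in 3D, Wisp1, Lef1 and Nkd1 lie higher in 2D, and Axin2, Lgr5, Myc and Cd44 overlap.

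Several of the genes above differed within a culture. In 2D, Rspo1, Sfrp1, Sfrp4, Ror1 and Axin2 were highest in mouse 4, the library with the highest sum of mesothelial markers (2175), and Rspo1, Sfrp1, Sfrp4 and Axin2 had their next highest value in mouse 3, where that sum was 861. In mice 2 and 5, where the sum was 2.24 and 0.815, Dkk2 and Lef1 had their higher values. The epithelial marker sum was also highest in 2D mouse 4 and next highest in mouse 3, at 31.8, 176, 694 and 31.8 in mice 2, 3, 4 and 5. Endothelial and macrophage marker sums ranked 2D mice 4 and 3 in the same way, and the stromal sum was lowest in 2D mouse 4 (1634). The relation to any of these marker sums was not tested. In 3D, mouse 1 had, among others, the highest Wnt5a, Wnt4, Wnt5b, Sfrp1, Dkk3, Fzd7, Fzd3, Tcf7 and Lgr4 and the lowest Wnt7b, Wnt7a, Wnt10a and Znrf3. Its stromal marker sum was 8.15, beside 4.72 to 8.16 in the other 3D libraries, and its epithelial marker sum was 2723, beside 2905 to 3183. Without 3D mouse 1, 13 Wnt genes were higher and 14 lower, and without 2D mouse 4, 13 were higher and 13 lower.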

How the data were processed

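Total RNA of 8 cultures was sequenced. The authors depleted ribosomal RNA, made directional libraries, trimmed the paired-end reads with FASTX_Trimmer and BBMap after FastQC, mapped them with TopHat (mm10 in the submitters' processing notes) and ran Cufflinks. What they deposited is FPKM per gene and library, with no counts and not yet quantile normalized, although the study's methods name that step. The annotation and the use of strand in counting are not given in the sources used here. Of the 59 genes, 11 share exon bases with another gene in GENCODE M21, 6 of them called, and where the other gene is on the opposite strand this is 3.15% to 17.8% of their exon bases.

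Genes at 0 in all libraries (5484) were left out. The other 18862 were quantile normalized and fitted with limma 3.58.1 in R 4.3.3 on log2(FPKM + 1), with empirical Bayes moderation, an intensity trend and no covariates, and called at a Benjamini-Hochberg adjusted p below 0.05. Replicates are cultures of different mice. The smallest FPKM steps of 3287 single-transcript genes (3000 nt or longer) gave a depth of 17.3 to 18.3 M fragments per library in 2D and 15.2 to 16.3 M in 3D, with 75.7% to 80.2% of low values within 0.15 of a whole step. The floor of a gene is what 3 fragments give on its shortest coding transcript in a library. Bounds such as "at least 156-fold" divide the mean of the higher group, as deposited FPKM, by the largest floor of the other group, and floors cover counting error only. In a simulation of this layout (18543 genes), 33 of 100 genes changed by 1 and 96 of 100 changed by 2 on the log2 scale were called, with 6 false calls. It gave every gene the same assumed dispersion, shared no mice between cultures and changed only genes averaging 1 FPKM or more. Its rates check the fit and do not give the sensitivity or error rate of these libraries.

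By their titles, mice 4 and 5 gave a library of each culture, and this pairs 2 of the 4 libraries per group. After culture means were subtracted, both libraries of mouse 4 correlated at -0.05 and those of mouse 5 at -0.11 over 12583 genes. Values in every library are given for genes with a mean of at least 5 normalized FPKM in a culture, ranges for means from 1 to 5, and the highest value below that (Rspo1 and Axin2 in full). Of the other lists, up to 2 rises and 2 falls with the largest change among called genes are named, all where 5 or fewer were called, and Wls, Porcn, Myc, Cd44 and the other called targets were named after their values were seen. The genes and lists were chosen with earlier results of these data known.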

Additional observations from a re-analysis of the deposited data

Results flagged for a closer look

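Each gene was examined within each culture where its mean was at least 1 normalized FPKM, which gave 63 groups of 4 libraries. In 7 of these 63 groups, 1 library stood apart from the other 3 by more than the 95% limit of Dixon's test. In all 7 it was the highest library. The limit assumes normally distributed values, and the FPKM were not on the log scale. The 7 can therefore not be set against a rate expected by chance. All values are normalized FPKM. Of the 7 groups, 3 were flagged for 3D mouse 1. There Wnt5a was 30.7 beside 7.77 to 9.98 in the other 3D libraries, Sfrp1 was 19.3 beside 0.0483 to 0.155, and Tcf7 was 11.99 beside 4.89 to 5.79. In 2D mouse 4, Sfrp1 was 30.3 beside 1.02 to 2.31 in the other 2D libraries, and Ror1 was 3.70 beside 0.773 to 1.05. In 2D mouse 5, Rspo2 was 3.67 beside 0.188 to 0.351, and Wnt5b was 4.80 beside 0.861 to 1.16. The mesothelial markers summed to 2175 in 2D mouse 4 and to 0.815 in 2D mouse 5. The epithelial markers summed to 694 and 31.8 in the same libraries, and the stromal markers to 1634 and 3478. The part of these markers in the flagged values was not tested.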

How the results depend on the processing

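Counts of Wnt genes higher and lower in 3D were 13 and 13, and stayed within 1.5 times of this with values as deposited (13 and 12), no intensity trend (13 and 12), a pseudocount of 0.1 (13 and 14), only genes averaging 1 FPKM or more (12 and 10, with fewer genes tested), genes under 300 nt left out (13 and 13) and the mouse as a random effect (13 and 13). Leaving out each library gave 13 to 14 higher and 10 to 14 lower. With the mouse as a replicate block, 0 were higher and 0 lower, with 1 residual degree of freedom for all genes. With only mice 4 and 5, the pairs named in the titles, 6 were higher and 7 lower with fewer libraries. No called gene changed direction under any alternative run for it, of 16 in all (for Lef1, Rspo3, Wnt9b and Wnt10b the fit of genes averaging 1 FPKM or more gave no value). Directions are given for 42 genes, and of the others, which are low, Dkk1, Dkk4, Fzd9, Fzd10, Sfrp5 and Wnt16 also turned under some alternative. The genes that turned had not passed the test. As deposited these were Fzd4 (0.10), Ror1 (0.13), Tcf7l1 (0.048) and Wnt2b (0.16). Axin1 was 0.19 under the block and 0.19 with only mice 4 and 5. Over the fits that left out 1 library, the log2 fold changes ranged from -0.011 to 0.0996 for Apc, -0.12 to 0.038 for Axin1, -0.25 to 0.10 for Fzd4, -0.35 to 0.17 for Fzd7 and -0.34 to 0.17 for Ror1. The cause of these turns was not tested. Genes near 3 fragments per library, such as Wnt3a and Fzd10, are limited by depth.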
